A study of Mus musculus with 30 samples.

Results

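Id1, Id2 and Id3, the SMAD proteins Smad3, Smad6 and Smad7, and the nuclear repressors Skil and Tgif1 were described as a group of 8 genes of transforming growth factor β (TGF-β) and bone morphogenetic protein (BMP) signalling. They were taken by gene symbol from the 24761 symbols of an RNA sequencing series, with the RefSeq transcript of highest mean level standing for each gene. All 8 were found, and all 8 passed the filter on low values. The cells were macrophages grown from bone marrow of wild-type C57Bl/6 mice in medium with M-CSF, the growth factor that drives macrophage differentiation. Of the cultures, 3 (M2, M3 and M4) received 1 µM of the β2 adrenergic receptor agonist metaproterenol hemisulfate (MPH) for 2 h. The other 7 (r1, r2, UKD and D3 to D6) received the vehicle DMSO for the same time. Lipopolysaccharide (LPS, labelled 100 ng/µL), the bacterial cell wall component sensed by Toll-like receptor 4, was then given for 1 or 2 h, or not at all (0 h). Each culture gave 1 library per time, 30 in all. The labels do not say whether cultures came from separate mice, so the p-values speak for these cultures only, whose spread may be partly technical. The main fits counted the 3 libraries of a culture as independent, and further fits took the culture into account.

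TGF-β and BMP ligands bind serine/threonine kinase receptors that phosphorylate receptor-regulated SMADs. Smad3 carries the TGF-β and activin branch, Smad1, Smad5 and Smad9 carry the BMP branch, and both enter the nucleus with Smad4. Smad6 and Smad7 are inhibitory SMADs that BMP and TGF-β induce and that block the receptors in turn, while Skil (SnoN) and Tgif1 are nuclear repressors that bind SMAD complexes. The Id genes are classical BMP targets. Their proteins hold a helix-loop-helix without a DNA-binding basic region, so they pair with E proteins and keep them off DNA.

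The promoters of Id2, Id3, Smad6 and Tgif1 are shown because these genes stand for the transient rises at 1 h (Id2, Id3 and Tgif1) and the fall at 2 h (Smad6). They are the 250 bases before the gene start in RefSeq (build GRCm38.p6, not the build mm9 of the deposited values, so the coordinates apply to the reference only). Each is written 5′ to 3′ on the gene's strand. Id1 and Skil had no entry among the reference promoters, that of Smad7 is not reported here, and the other 5 genes were searched. Tgif1 had 5 start sites there, of which the most upstream is shown. Capitals mark the 6-base BMP-type SMAD element GGCGCC and the cyclic AMP response half-site TGACG (or CGTCA), searched on both strands.
Id2, chr12:25096093-25096342, minus strand: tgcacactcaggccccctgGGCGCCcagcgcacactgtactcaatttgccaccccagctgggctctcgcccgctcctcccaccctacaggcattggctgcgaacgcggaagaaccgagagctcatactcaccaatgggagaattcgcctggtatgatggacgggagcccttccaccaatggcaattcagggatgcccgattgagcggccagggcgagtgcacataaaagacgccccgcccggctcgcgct
Id3, chr4:136143572-136143821, plus strand: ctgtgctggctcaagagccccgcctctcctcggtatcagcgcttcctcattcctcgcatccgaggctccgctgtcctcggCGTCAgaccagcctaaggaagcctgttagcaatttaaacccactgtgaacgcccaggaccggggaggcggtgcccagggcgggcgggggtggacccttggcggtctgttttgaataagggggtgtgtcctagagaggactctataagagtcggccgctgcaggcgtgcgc
Smad6, chr9:64022060-64022309, minus strand: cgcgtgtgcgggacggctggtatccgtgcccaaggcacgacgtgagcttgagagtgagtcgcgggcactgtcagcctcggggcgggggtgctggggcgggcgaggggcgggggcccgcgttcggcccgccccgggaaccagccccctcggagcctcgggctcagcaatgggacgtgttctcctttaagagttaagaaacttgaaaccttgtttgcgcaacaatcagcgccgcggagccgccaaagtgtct
Tgif1, chr17:70853533-70853782, minus strand: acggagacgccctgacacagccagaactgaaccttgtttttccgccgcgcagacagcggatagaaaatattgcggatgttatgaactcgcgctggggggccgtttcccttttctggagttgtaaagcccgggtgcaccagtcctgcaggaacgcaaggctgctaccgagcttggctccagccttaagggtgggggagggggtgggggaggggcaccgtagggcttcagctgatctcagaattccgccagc
Id2 held GGCGCC at 1 place, a motif found in 9.59% of 32851 RefSeq promoter windows of this length. Id3 held CGTCA at 1 place and Id2, Smad6 and the 5 windows of Tgif1 held neither TGACG nor CGTCA, which 17.8% of windows held. None of these held the whole site TGACGTCA, which 1.55% held. The short SMAD-binding letters CAGAC (or GTCTG) were in 42.2% of windows, at 2 places in that of Id3 (1 overlapping its CGTCA) and in 3 of the 5 windows of Tgif1, the one shown included. The fifth gene searched, Smad3, held none of these motifs. A match is a run of letters and does not show binding.

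Libraries held about 5.4 to 92.1 M reads (M, mega), with a median of 41.3 M. Of these, 7 were below 20 M, the stated minimum of raw reads. The estimate assumes that the commonest product of value and length, among transcripts under 0.1 RPKM in every library, stands for 1 read. Among the shallowest were the 1 h DMSO libraries from D4 (about 9.7 M), UKD (8.5 M) and D6 (5.4 M). Values are RPKM, in which reads are divided by transcript length and by sequencing depth, so levels of different genes can be compared. All 9 macrophage markers were expressed, with Csf1r at 167 to 381 RPKM and Lyz2 at 2727 to 5714 RPKM over the 30 libraries. Cd3e and Col1a1, which mark T cells and fibroblasts, reached 0.128 and 0.553 RPKM. Of the 8 neutrophil genes, Ly6g reached 0.356 RPKM, while S100a8 reached 34.4 RPKM, S100a9 49.8 RPKM and Ngp 11.9 RPKM. The summed level of these 8 genes was 39.7 to 52.4 RPKM in the MPH libraries at 0 h and 5.55 to 46.9 RPKM in the DMSO libraries at 0 h. In bulk RNA, fewer cells with a transcript and less transcript per cell cannot be told apart.

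In DMSO cultures without LPS, the levels of the 8 genes differed widely. Id2 averaged 116 ± 28.3 RPKM and Id3 averaged 41.5 ± 21.8 RPKM (SD, n = 7 here and for the other levels at 0 h under DMSO). Their ranges, 80.5 to 164 RPKM for Id2 and 12.4 to 63.8 RPKM for Id3, did not overlap. Below them came Id1 at 17.8 ± 11.6 RPKM, Tgif1 at 16.5 ± 3.27 RPKM, Skil at 10.3 ± 5.44 RPKM and Smad6 at 5.27 ± 3.43 RPKM. Smad7 at 1.67 ± 0.591 RPKM and Smad3 at 1.33 ± 0.494 RPKM were the lowest. From Id3 downwards, the ranges of neighbours in this order overlapped.

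**Figure D1:**
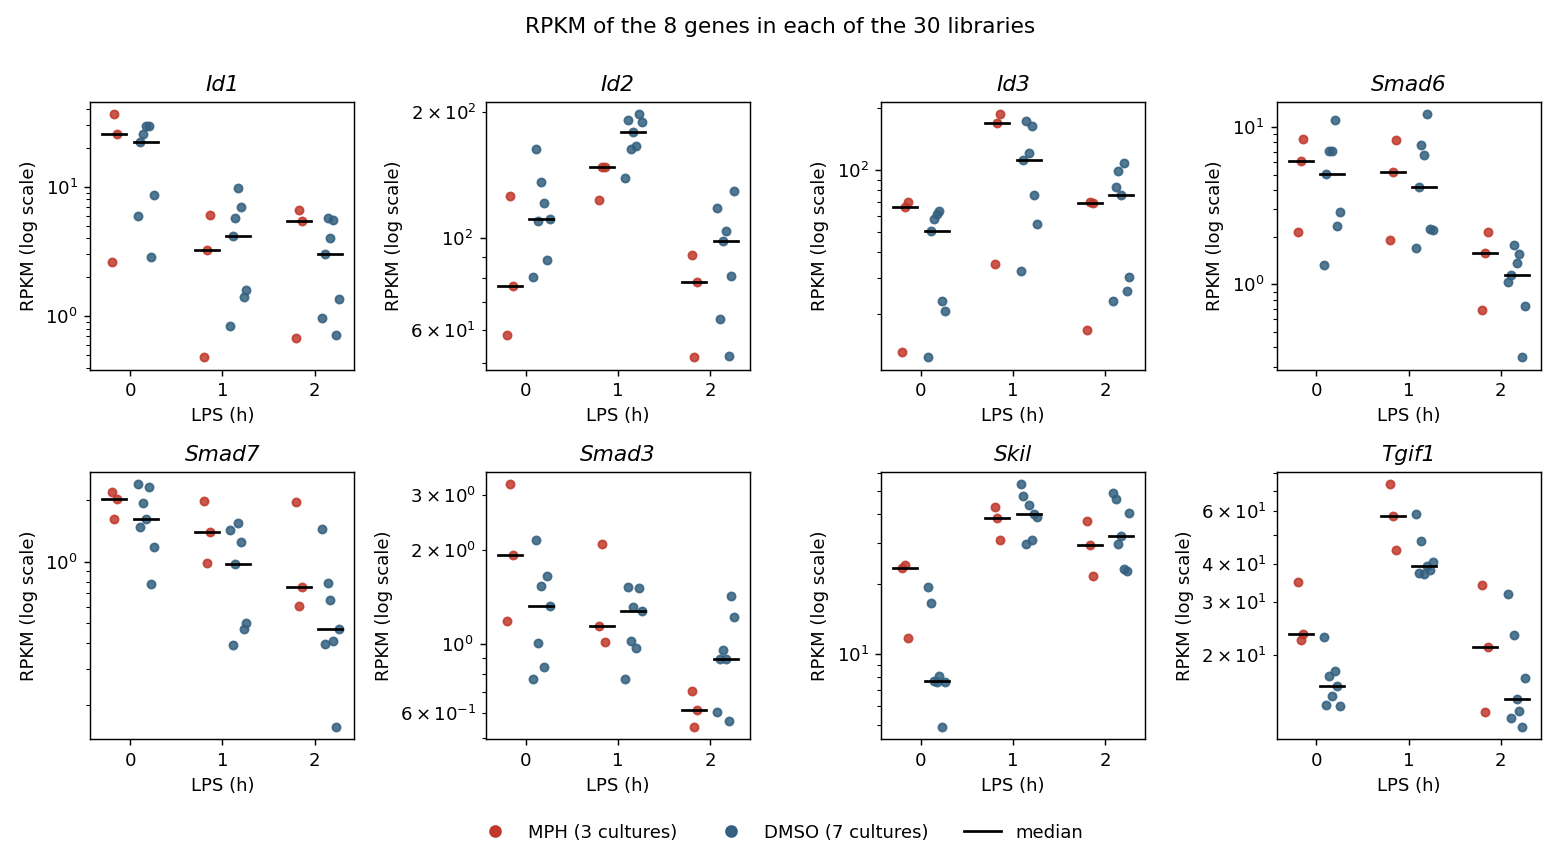
RPKM on a log axis for each of the 8 genes at 0, 1 and 2 h of LPS; each point is 1 library (MPH, 3 cultures, left of DMSO, 7 cultures) and the black line is the group median. Id1 is lower at 1 and 2 h, Id3 and Tgif1 peak at 1 h, Skil stays high at 2 h and Smad6 is low only at 2 h; at each time the MPH points lie among or overlap with the DMSO points for every gene.

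LPS moved these genes in several directions within an hour in DMSO cultures. Against 0 h, Skil was 4.13-fold higher at 1 h, Tgif1 2.55-fold, Id3 2.55-fold and Id2 1.54-fold higher, and Id1 was 3.68-fold lower (folds of the mean log2(RPKM + 0.5), which understate changes of low genes). Smad7 was 1.54-fold lower. These 6 of 8 genes passed the test (limma, Benjamini-Hochberg adjusted p under 0.05 over 10212 genes), 4 higher and 2 lower. Of all genes tested, 20.3% passed, 5.24% higher and 15% lower. Smad3 and Smad6 did not pass: Smad3 averaged 1.20 ± 0.283 RPKM at 1 h and 1.33 ± 0.494 RPKM at 0 h, and Smad6 averaged 5.27 ± 3.81 RPKM at 1 h and 5.27 ± 3.43 RPKM at 0 h (SD, n = 7). At 2 h against 0 h, 4 of 8 passed, beside 54.1% of all genes, with Skil higher and Id1, Smad6 and Smad7 lower. Between 1 and 2 h, Id2, Smad6 and Tgif1 fell, 3 of 8 beside 22% of all genes.

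The median change of all genes was itself negative on the deposited scale, -0.15 at 1 h and -0.25 at 2 h against 0 h (log2), and a median-of-ratios scaling raised it by 0.14 and 0.24. Under that scaling the share of higher genes among all calls was 56.8% in place of 25.8% at 1 h, 49.1% in place of 19.4% at 2 h, and 50.2% in place of 30% between 1 and 2 h. Among the 8 genes the scaling changed no direction of a call, and it ended 1 call, that of Smad7 at 1 h (adjusted p = 0.132, limma).

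Libraries of a culture went together: deviations from the group means over all genes correlated between times of the same culture at 0.63 to 0.91 in the DMSO fit. With the culture as a block, the same 6 genes passed at 1 h (51.5% of all genes), and 6 passed at 2 h against 0 h (75.1%) and between 1 and 2 h (47.7%). The genes added were Id3 and Smad3 in both of these, and Smad7 between 1 and 2 h.

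The inhibitor-of-differentiation genes split. Id1 had 2.63, 36.4 and 25.8 RPKM at 0 h in M2, M3 and M4, 0.479, 3.23 and 6.03 RPKM at 1 h, and 0.678, 6.61 and 5.46 RPKM at 2 h. In DMSO cultures the lowest, median and highest Id1 levels were 2.89, 22.1 and 29.7 RPKM at 0 h, 0.836, 4.19 and 9.75 RPKM at 1 h, and 0.713, 3.02 and 5.75 RPKM at 2 h. Within each culture Id1 was lower with LPS, at 1 and at 2 h, in 3 of 3 MPH cultures and 7 of 7 DMSO cultures, although the ranges of the times overlapped and the cultures started from very different levels. The log2 change under DMSO was -1.88 at 1 h (SE 0.42, limma adjusted p = 0.00326) and -2.25 at 2 h (SE 0.42, adjusted p = 0.000189). Under MPH it was -2.33 at 1 h (SE 0.98, adjusted p = 0.384) and -1.97 at 2 h (SE 0.98, adjusted p = 0.174). With the culture as a block both MPH changes passed, with adjusted p = 0.000388 at 1 h and 0.000443 at 2 h (limma).

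Id3 went the other way. Its levels were 13.1, 66.0 and 70.5 RPKM at 0 h in M2, M3 and M4, 35.2, 169 and 187 RPKM at 1 h, and 16.8, 70.4 and 69.1 RPKM at 2 h. Under DMSO the lowest, median and highest were 12.4, 50.7 and 63.8 RPKM at 0 h, 32.3, 112 and 174 RPKM at 1 h, and 23.3, 76.0 and 108 RPKM at 2 h. Every culture peaked at 1 h, and the size of the rise varied little: 1.35 to 1.40 (log2) in the 3 MPH cultures and 0.98 to 1.68 in the 7 DMSO cultures. The mean rise under DMSO was 1.35 (SE 0.38, limma adjusted p = 0.0171). It no longer passed without r1 (adjusted p = 0.0699), without r2 (0.0585), without the 3 shallow 1 h libraries (0.116), without the covariate for the D, r and UKD names (0.0556) or in D3 to D6 alone, fitted with the MPH cultures (0.477). These fits had no block, and with the culture as a block the rise under DMSO passed, beside 51.5% of all genes. Under MPH the mean rise of 1.38 did not pass (SE 0.86, adjusted p = 0.754) and passed with the culture as a block (adjusted p = 0.00396). At 2 h Id3 still stood above 0 h in 7 of 7 DMSO cultures, by 0.59 (SE 0.38, adjusted p = 0.206, and 0.00202 with the block).

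Id2, the most abundant of the 3, rose and came down again. Its levels were 58.6, 126 and 76.5 RPKM at 0 h in M2, M3 and M4, 124, 148 and 148 RPKM at 1 h, and 91.0, 51.7 and 78.5 RPKM at 2 h. In DMSO cultures the lowest, median and highest were 80.5, 111 and 164 RPKM at 0 h, 139, 179 and 198 RPKM at 1 h, and 52.2, 98.6 and 129 RPKM at 2 h. At 1 h it was higher than at 0 h in 3 of 3 MPH and 7 of 7 DMSO cultures, and the 1 h and 2 h levels under DMSO did not overlap. Under DMSO the change was 0.62 at 1 h against 0 h (SE 0.18, limma adjusted p = 0.0193) and -0.97 at 2 h against 1 h (SE 0.18, adjusted p = 0.000705). The call at 1 h ended without r1 (adjusted p = 0.0933), without r2 (0.0522), without the 0 h library of r1 (0.0535), without the 1 h library of UKD (0.0515), without the 3 shallow 1 h libraries (0.147), in UKD, r1 and r2 alone (0.0715) or in D3 to D6 alone, fitted with the MPH cultures (0.400). These fits had no block, and with the culture as a block the 1 h change of Id2 passed, beside 51.5% of all genes.

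The inhibitory SMADs differed in when they fell. Smad6 had 2.16, 6.06 and 8.44 RPKM at 0 h in M2, M3 and M4, 1.91, 5.20 and 8.27 RPKM at 1 h, and 0.687, 1.58 and 2.17 RPKM at 2 h. The 7 DMSO cultures had a lowest, median and highest of 1.33, 5.03 and 11.1 RPKM at 0 h, 1.70, 4.2 and 12.1 RPKM at 1 h, and 0.343, 1.15 and 1.78 RPKM at 2 h. It was lower at 2 h than at 1 h in 3 of 3 MPH and 7 of 7 DMSO cultures, least in D3, whose level was already the lowest of the DMSO cultures at 0 h. Smad6 fell under DMSO by 1.64 on the log2 scale at 2 h against 0 h (SE 0.31, limma adjusted p = 0.000180) and by 1.61 at 2 h against 1 h (SE 0.31, adjusted p = 0.000824). Under MPH the change at 2 h against 0 h was -1.52 (SE 0.60, adjusted p = 0.0813, and 0.000257 with the block).

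Smad7 was scarce throughout, with 2.20, 1.61 and 2.02 RPKM at 0 h in M2, M3 and M4, 1.98, 0.987 and 1.39 RPKM at 1 h, and 1.97, 0.605 and 0.755 RPKM at 2 h. Lowest, median and highest under DMSO were 0.778, 1.62 and 2.40 RPKM at 0 h, 0.394, 0.973 and 1.55 RPKM at 1 h, and 0.156, 0.469 and 1.45 RPKM at 2 h. It was below its own 0 h level in all 10 cultures at 1 h and at 2 h, and the smallest falls at 2 h were in M2 (0.13, log2) and D3 (0.57). Smad7 fell under DMSO by 0.62 at 1 h (SE 0.19, limma adjusted p = 0.0274) and by 0.99 at 2 h (SE 0.19, adjusted p = 0.000281). The call at 1 h ended without D5, r1, r2 or UKD (adjusted p of 0.0784, 0.0596, 0.0779 and 0.0582, limma), without the 0 h library of D3 (0.0508), r2 (0.0558) or UKD (0.0702), or without the 3 shallow 1 h libraries (0.0773). It also ended with no filter on low values (0.0656), without the covariate for names (0.103), in UKD, r1 and r2 alone (0.0873) and in D3 to D6 alone, fitted with the MPH cultures (0.330, limma). These fits had no block, and with the culture as a block the 1 h change of Smad7 passed, beside 51.5% of all genes. Under MPH the change at 2 h was -0.69 (SE 0.34, adjusted p = 0.167, and 0.00589 with the block).

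Smad3, the TGF-β and activin SMAD, passed in the main fits only in the comparison of 2 h with 0 h under MPH. Its levels were 1.18, 3.26 and 1.93 RPKM at 0 h in M2, M3 and M4, 1.15, 2.09 and 1.02 RPKM at 1 h, and 0.705, 0.540 and 0.614 RPKM at 2 h. Under DMSO the lowest, median and highest were 0.774, 1.32 and 2.15 RPKM at 0 h, 0.774, 1.27 and 1.52 RPKM at 1 h, and 0.566, 0.896 and 1.42 RPKM at 2 h. Under MPH the 2 h levels were all below the 0 h levels, while under DMSO the ranges overlapped. Smad3 fell under MPH by 1.15 at 2 h (SE 0.29, limma adjusted p = 0.00998), the only 1 of 8 genes to pass there beside 20.7% of all genes. The call ended without culture M3 (adjusted p = 0.135) or M4 (0.0722), or without the 0 h library of M3 (0.0660). Under DMSO the change was -0.33 (SE 0.14, adjusted p = 0.0603, and 0.00251 with the block), lower in 7 of 7 cultures. Without a block this change passed when D3 was left out (limma adjusted p = 0.0257). It also passed without the 0 h library of D3 (0.0208) or the 2 h library of r1 (0.0495). The difference between the changes, taken against D3 to D6 alone, was -0.72 (SE 0.39, limma adjusted p = 1) and did not pass.

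The SMAD corepressors both rose at 1 h, and their 2 h levels diverged. Tgif1 had 34.8, 22.4 and 23.4 RPKM at 0 h in M2, M3 and M4, 73.8, 57.6 and 44.6 RPKM at 1 h, and 34.1, 12.9 and 21.3 RPKM at 2 h. In DMSO cultures the lowest, median and highest were 13.6, 15.7 and 23.0 RPKM at 0 h, 37.2, 39.4 and 58.9 RPKM at 1 h, and 11.5, 14.3 and 31.9 RPKM at 2 h. In all 10 cultures the 1 h level was the highest of the 3 times, and under each treatment the 1 h range lay above the other 2 ranges. Tgif1 rose under DMSO by 1.35 at 1 h (SE 0.18, limma adjusted p = 1.85e-05) and fell by 1.33 between 1 and 2 h (SE 0.18, adjusted p = 4.33e-05). Under MPH the change at 1 h was 1.11 (SE 0.35, adjusted p = 0.133, and 0.000291 with the block).

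Skil kept its rise. It had 23.6, 24.1 and 11.7 RPKM at 0 h in M2, M3 and M4, 42.8, 38.4 and 30.8 RPKM at 1 h, and 37.3, 29.5 and 21.6 RPKM at 2 h. The 7 DMSO cultures had a lowest, median and highest of 4.87, 7.71 and 19.4 RPKM at 0 h, 29.8, 39.8 and 53.7 RPKM at 1 h, and 22.7, 32.0 and 49.1 RPKM at 2 h. Every DMSO library with LPS was above every DMSO library without it. Skil rose under DMSO by 2.05 at 1 h (SE 0.22, limma adjusted p = 1.11e-06) and by 1.80 at 2 h (SE 0.22, adjusted p = 2.00e-06). Under MPH the changes were 0.95 at 1 h (SE 0.36, adjusted p = 0.267) and 0.60 at 2 h (SE 0.36, adjusted p = 0.268), each higher in 3 of 3 cultures. Both passed with the block (adjusted p = 0.00111 and 0.0100, limma).

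**Figure D2:**
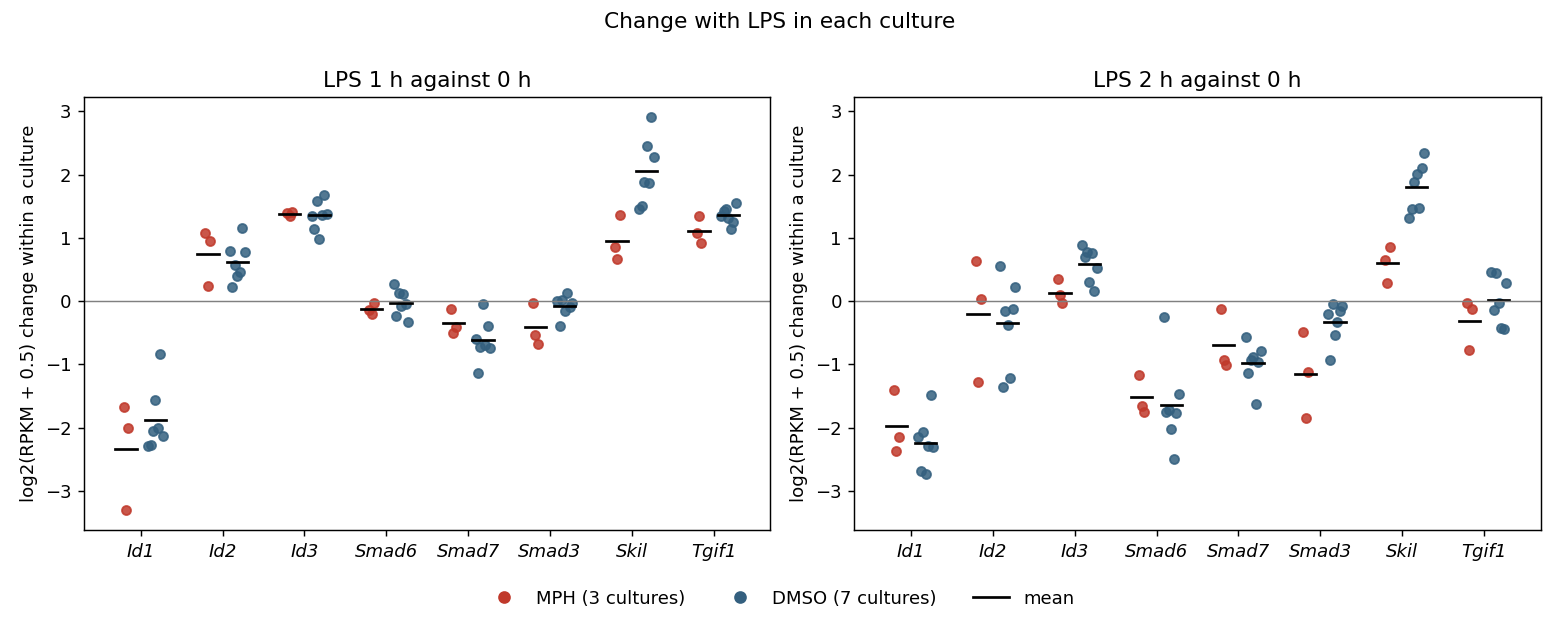
Change in log2(RPKM + 0.5) within each culture at 1 h (left) and 2 h (right) of LPS against 0 h for the 8 genes; each point is 1 culture (MPH left of DMSO) and the black line is the mean. Id1 is below 0 and Skil above 0 in all 10 cultures at both times; for Skil the 3 MPH cultures lie below all 7 DMSO cultures.

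Counted over the 8 genes, none passed at 1 h under MPH, beside 3.08% of all genes, and 4 had an unadjusted p under 0.05, beside 9.92% of all genes (limma). With the culture as a block, 4 passed at 1 h (Id1, Id3, Skil and Tgif1, beside 12.4% of all genes). At 2 h, 5 passed with the block (Id1, Skil, Smad3, Smad6 and Smad7, beside 52.1%). The median change of the 8 genes at 1 h was 0.31 under MPH and 0.30 under DMSO, where the medians over all genes were -0.09 and -0.15. At 2 h it was -0.50 under MPH and -0.34 under DMSO, where the medians over all genes were -0.23 and -0.25. Under the median-of-ratios scaling the share of higher genes among all calls under MPH was 75.3% in place of 61.6% at 1 h and 58.1% in place of 28.8% at 2 h. That scaling moved the median of all genes by 0.22 at 2 h under MPH.

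The question of the series was what the β2 adrenergic agonist does to macrophages before and during LPS. None of the 8 genes passed the comparison of MPH with DMSO (cultures D3 to D6, n = 3 and 4) at 0, 1 or 2 h, where 0.869%, 0% and 0.869% of all 10239 genes passed (limma). None had an unadjusted p under 0.05 at any time, beside 6.69%, 3.19% and 9.08% of all genes at 0, 1 and 2 h, and the MPH and DMSO ranges overlapped for all 8 genes at each time. Non-overlapping ranges were found for 7.54%, 1.48% and 9.5% of all genes at 0, 1 and 2 h. With the culture as a block none of the 8 genes passed at 0, 1 or 2 h, beside 0.244%, 0% and 0.0195% of all genes (limma). The 1 h library of M4, included here, held thrombospondin 1 (Thbs1) at a level within the DMSO range, as given below. The summed level of the neutrophil genes, of which 6 of 8 reached 1 RPKM in 3 libraries, had a median of 46.7 RPKM in the MPH libraries and 27.4 RPKM in the DMSO libraries at 0 h, with overlapping ranges, and its part in these differences was not tested. Before LPS the largest differences among the 8 genes, each not past the test, were those of Skil, at 0.66 (SE 0.34, limma adjusted p = 0.835), and Tgif1, at 0.64 (SE 0.33, adjusted p = 0.863). Id2 followed at -0.52 (SE 0.28, adjusted p = 0.894) and Smad3 at 0.47 (SE 0.27, adjusted p = 1.00). For Skil, M2 and M3 at 23.6 and 24.1 RPKM were above all 7 DMSO cultures, and M4 at 11.7 RPKM was below D3 and D4. For Tgif1, M2 and M4 at 34.8 and 23.4 RPKM were above all 7 DMSO cultures, and M3 at 22.4 RPKM was just below D3 at 23.0 RPKM. The test did not pair cultures, since the labels give no pairing. Over all genes M2, M3 and M4 resembled D3, D4 and D5, and within these sets, which were chosen from the data, Id2 was lower in 3 of 3 at each time and Skil, Tgif1, Smad3, Smad6 and Id3 were higher in 3 of 3 at 0 h. Id1 and Smad7 went both ways at 0 h. The share of all genes with the same direction in 3 of 3 was not computed. For Id1 the SE of 0.92 around a difference of -0.35 left changes of more than 2-fold in either direction undetectable.

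**Figure D3:**
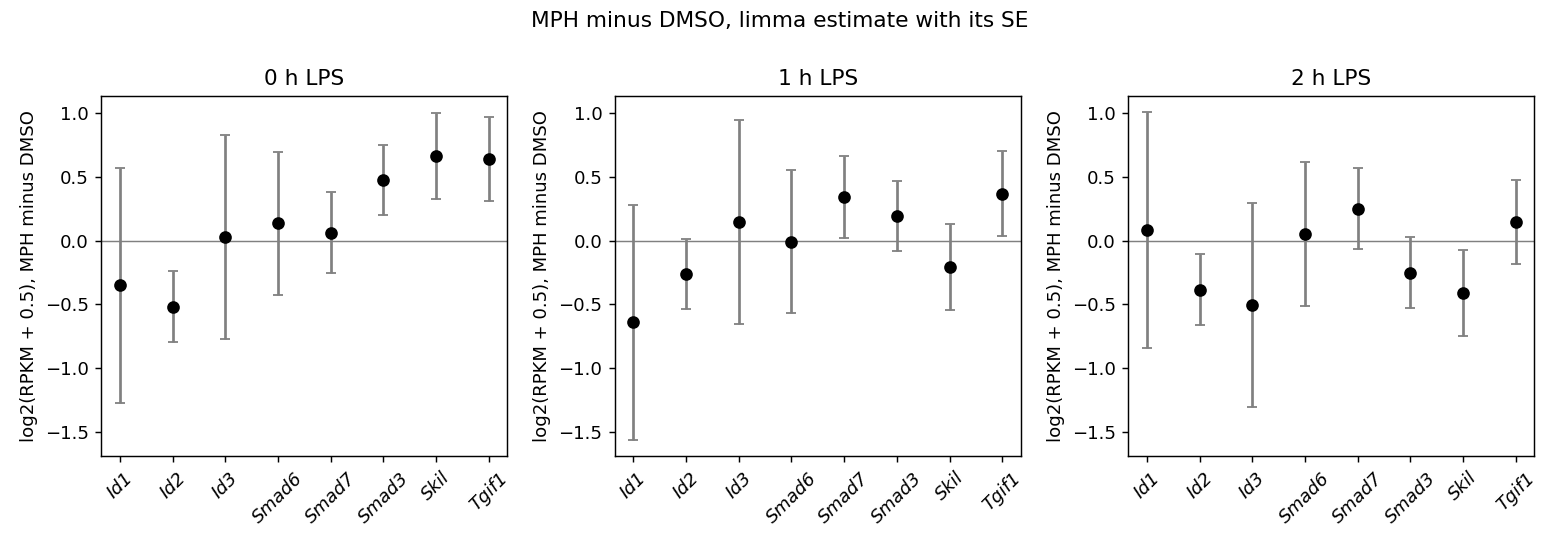
Estimated difference in log2(RPKM + 0.5), MPH minus DMSO, for the 8 genes at 0, 1 and 2 h of LPS (points) with its SE (bars) from the fit of 21 libraries of M2 to M4 and D3 to D6. Skil and Tgif1 have the highest values at 0 h, Id2 is below 0 at each time, and the bars of Id1, Id3 and Smad6 are the widest.

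The response of Skil to LPS was the one member response whose MPH and DMSO cultures separated. At 1 h the change within cultures was 0.66 to 1.36 in M2 to M4, against 1.45 to 2.91 in the 7 DMSO cultures. The value of 1.36 was that of M4, whose 1 h library held Thbs1 at a level within the DMSO range. At 2 h it was 0.28 to 0.85 in M2 to M4, against 1.32 to 2.33 in the 7 DMSO cultures. Of 10355 genes, 4.42% had non-overlapping changes at 1 h and 7.71% at 2 h, so 1 of 8 genes at each time is not far from that background. The difference of the responses, taken against D3 to D6 alone, was -0.87 at 1 h (SE 0.47, limma adjusted p = 1) and -1.07 at 2 h (SE 0.47, adjusted p = 1). None of the 8 genes passed this test at 1 or 2 h, beside 0% and 0.107% of all genes, and at an unadjusted p under 0.05 there were 0 genes at 1 h and 1 at 2 h, beside 0.811% and 3.11% of all genes. With the culture as a block the 2 h difference of Skil passed (adjusted p = 0.0226, beside 1.72% of all genes) and the 1 h difference did not (adjusted p = 0.261). The levels with LPS overlapped between treatments, while the 0 h level under MPH was 19.8 ± 6.99 RPKM (SD, n = 3), against 10.3 ± 5.44 RPKM under DMSO (SD, n = 7). In D3 to D6, the DMSO cultures of the test, it was 12.8 ± 6.07 RPKM (SD, n = 4).

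Between cultures, Id1, Id3 and Smad6 went up and down together. M2, at 0 h, had 2.63 RPKM of Id1, 13.1 RPKM of Id3 and 2.16 RPKM of Smad6. M3 and M4 had 25.8 to 36.4 RPKM of Id1, 66.0 to 70.5 RPKM of Id3 and 6.06 to 8.44 RPKM of Smad6. Among DMSO cultures, D3, r1 and r2 had 2.89 to 8.67 RPKM of Id1, 12.4 to 23.3 RPKM of Id3 and 1.33 to 2.89 RPKM of Smad6. D4, D5, D6 and UKD had 22.1 to 29.7 RPKM of Id1, 50.7 to 63.8 RPKM of Id3 and 5.03 to 11.1 RPKM of Smad6. The low cultures thus occurred under each treatment and in the D, M and r names, and at 0 h no low culture reached a high one in any of the 3 genes. Id1 and Id3 kept this order at 1 and 2 h, when LPS had lowered Id1 and raised Id3. These are cultures sorted by their values, so the gap is a description with no test.

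**Figure D4:**
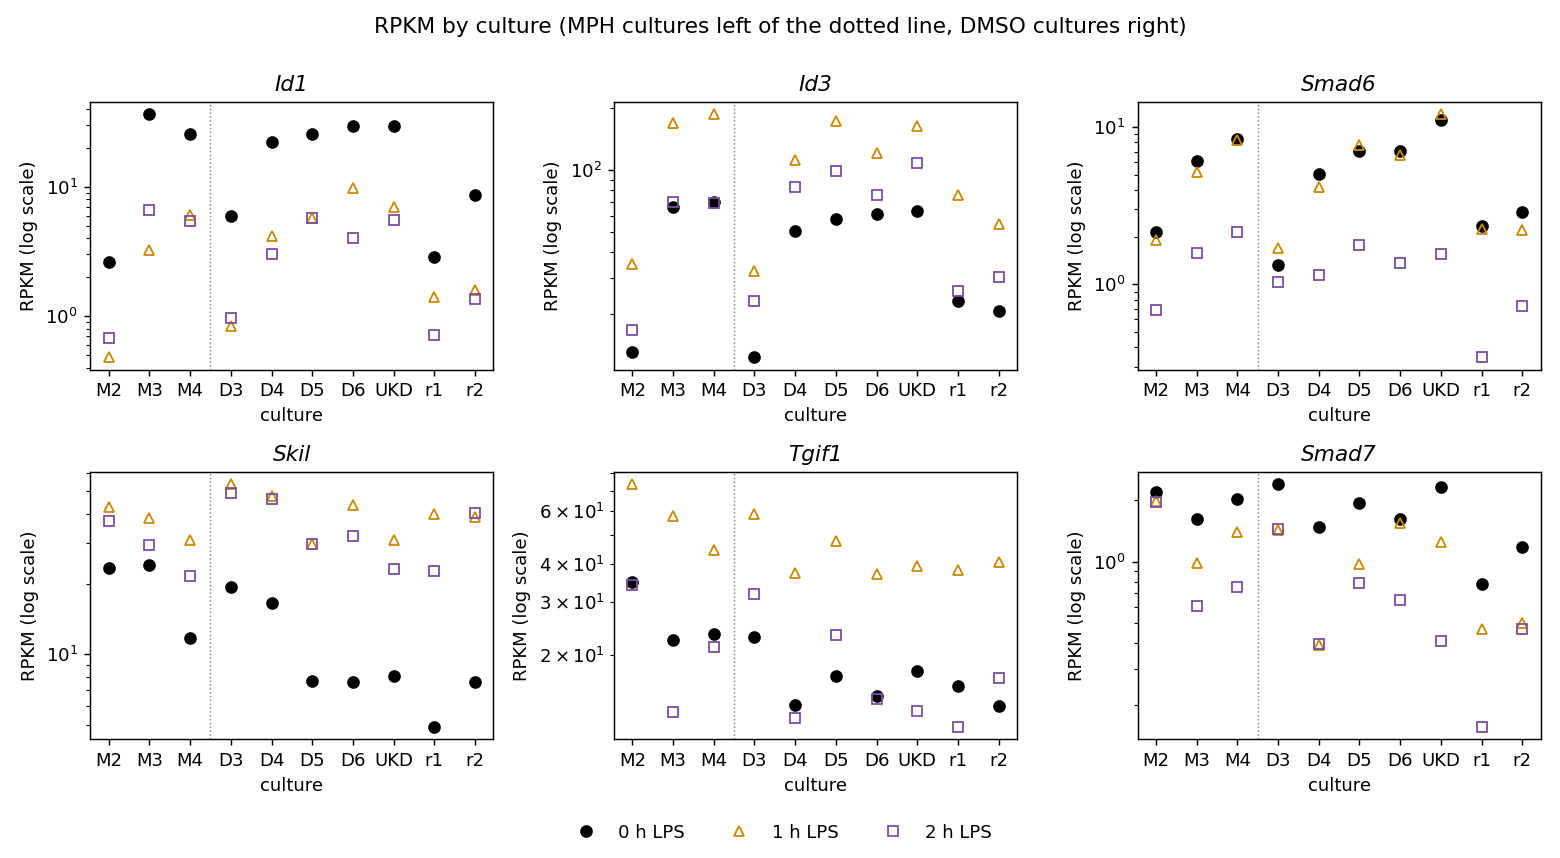
RPKM on a log axis by culture (MPH cultures left of the dotted line, DMSO cultures right) for Id1, Id3, Smad6, Skil, Tgif1 and Smad7 at 0, 1 and 2 h of LPS. M2, D3, r1 and r2 are low in Id1, Id3 and Smad6 at 0 h, and M2 and D3 are the highest in Tgif1 and Smad7 at 2 h.

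Over the 30 libraries, deviations from the means of treatment and time correlated at 0.93 between Id1 and Id3, 0.89 between Id1 and Smad6 and 0.89 between Id3 and Smad6. Smad7, the other inhibitory SMAD, did not share this, at 0.01 with Id1 and -0.20 with Id3, and correlated at 0.72 with Tgif1. The points share cultures, so these values describe the 10 cultures and carry no p. The libraries of M2 and D3 resembled each other over all genes, as did those of M3 and D4 and of M4 and D5 (0.74 to 0.91 at the same time). The level of Pf4, the most abundant gene of the erythroid, megakaryocyte and mast cell list, set the sum of that list at 0 h, which was 16.95, 67.3 and 37.1 RPKM in M2, M3 and M4 and 17.7 RPKM in D3, against 23.2 to 57.3 RPKM in the other DMSO cultures. Klf1 and Cpa3 were near 0 throughout, at up to 0.127 and 0.162 RPKM. The part of either pattern in the levels of Id1, Id3 and Smad6 was not tested.

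The genes most alike to each member over the 30 libraries, by Pearson's r among 10355 genes, were as follows. Id1 went with Mrpl51 (0.91), Ogfod2 (0.91) and Zbtb48 (0.90), and Id2 with Gas2l3 (0.83), Runx1 (0.76) and Adnp2 (0.76). Id3 went with Gdf15 (0.89), Pim3 (0.86) and Junb (0.86). Smad6 went with B3gnt8 (0.93), Agfg2 (0.92) and Kdm2b (0.91), Smad7 with Creg2 (0.90), Foxred2 (0.88) and Slc29a3 (0.86), and Smad3 with Rab19 (0.84), Rab29 (0.84) and Slc37a3 (0.79). Skil went with Pde4b (0.90), Sde2 (0.90) and Bcl2l11 (0.89), and Tgif1 with Sgk1 (0.89), Pcf11 (0.89) and Egr1 (0.87). These values describe libraries that share cultures and LPS times.

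Of 88 other genes listed for the pathway, 47 were measured well enough to be tested under DMSO. At 1 h of LPS 9 were higher and 7 lower, beside 20.3% of all genes called, and at 2 h 10 were higher and 17 lower, beside 54.1%. The median changes were -0.11 and -0.19 (log2), against -0.15 and -0.25 over all genes. With the culture as a block the counts were 11 higher and 12 lower at 1 h (51.5% of all genes) and 14 higher and 23 lower at 2 h (75.1%). Under MPH, 3 of 48 were higher and 1 lower at 1 h, and 5 were higher and 9 lower at 2 h, where 3.08% and 20.7% of all genes passed. With the block they were 8 and 4 at 1 h and 5 and 14 at 2 h (12.4% and 52.1% of all genes).

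Among ligands, Inhba, the activin A subunit, rose under DMSO by 0.60 at 1 h (SE 0.17, limma adjusted p = 0.0161) and by 1.54 at 2 h (SE 0.17, adjusted p = 4.98e-07), and under MPH by 3.14 at 2 h (SE 0.39, adjusted p = 1.79e-05). Inhba was near the floor before LPS, with means of 0.057 RPKM at 0 h and 0.391 RPKM at 1 h under DMSO. Under MPH its mean at 0 h was 0.175 RPKM. These means are below the 0.5 RPKM added before taking logs, so its log2 changes and their difference between treatments depend on that added value. Inhba reached 5.45 ± 0.792 RPKM at 2 h under MPH (SD, n = 3), against 1.22 ± 0.629 RPKM under DMSO (SD, n = 7) and 1.58 ± 0.433 RPKM in D3 to D6 (SD, n = 4), the DMSO cultures tested against MPH. Neither the comparison of MPH with DMSO at 2 h (1.53, SE 0.36, adjusted p = 0.0548, limma) nor the difference of the responses (1.30, SE 0.51, adjusted p = 1) passed. The 1 h call under DMSO ended without UKD (adjusted p = 0.0688) and without the covariate for names (0.101). Gdf15, a distant member of the TGF-β family, rose by 3.34 at 1 h under DMSO (SE 0.83, adjusted p = 0.00738, and 0.0744 without the 3 shallow 1 h libraries). Of 8 receptors tested, 2 fell at 1 h and 4 fell and 1 rose at 2 h under DMSO, beside 20.3% and 54.1% of all genes called. They included Acvr1b, the activin type I receptor, which fell by 0.63 at 2 h (SE 0.11, adjusted p = 0.000141), and Tgfbr2, the TGF-β type II receptor, which fell by 0.52 (SE 0.14, adjusted p = 0.00382). Under MPH at 2 h the change of Acvr1b was 0.30 (SE 0.26, limma adjusted p = 0.456). That of Tgfbr2 was -0.89 (SE 0.24, adjusted p = 0.0126, and 0.0697 under the median-of-ratios scaling). Acvr1b averaged 6.05 ± 2.77 RPKM at 2 h under MPH (SD, n = 3), against 2.54 ± 0.551 RPKM under DMSO (SD, n = 7). Its comparison of MPH with DMSO at 2 h did not pass (1.02, SE 0.24, adjusted p = 0.0524, limma). Under DMSO, the median-of-ratios scaling ended the 1 h calls of Acvr1b (adjusted p = 0.0632) and Acvrl1 (0.241). It also ended the 2 h calls under DMSO of Tgfbr2 (-0.26, adjusted p = 0.154) and Acvr1 (-0.12, adjusted p = 0.335). The 2 h call of Tgfbr2 under DMSO also ended without the covariate for names (adjusted p = 0.0951). Acvr1b at 2 h under DMSO was -0.40 under that scaling (adjusted p = 0.00627, limma).

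Of 9 other SMADs and nuclear cofactors, 1 rose and 6 fell at 2 h under DMSO, beside 54.1% of all genes called. Smad1, a BMP-branch SMAD, fell by 0.78 (SE 0.11, limma adjusted p = 6.21e-06) and Ski, the corepressor related to Skil, fell by 1.08 (SE 0.15, adjusted p = 7.18e-06), in the comparison where Skil rose. Zeb2, a SMAD-binding repressor, rose by 1.23 under DMSO (SE 0.10, adjusted p = 7.68e-09) and by 2.30 under MPH (SE 0.17, adjusted p = 2.83e-08). Of 5 E proteins and helix-loop-helix partners, none rose and 3 fell at 2 h under DMSO, beside the same 54.1%. Lyl1, a basic helix-loop-helix factor of blood cells, had 12.5 ± 7.91, 6.93 ± 5.59 and 1.52 ± 0.244 RPKM at 0, 1 and 2 h under MPH (SD, n = 3) and 14.2 ± 6.51, 6.72 ± 2.29 and 1.86 ± 0.50 RPKM under DMSO (SD, n = 7). Tal1, a related factor, fell by 1.61 at 2 h under MPH (SE 0.20, adjusted p = 1.64e-05) and by 1.11 under DMSO (SE 0.13, adjusted p = 1.53e-06). Tcf12, an E protein, fell by 0.69 under DMSO (SE 0.14, adjusted p = 0.000325), and by 0.44 under the median-of-ratios scaling, where it still passed.

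Of 6 target genes tested, 4 rose and 1 fell under DMSO at each of 1 and 2 h, beside 20.3% and 54.1% of all genes called. Junb, an AP-1 factor, rose by 3.99 at 1 h (SE 0.54, limma adjusted p = 2.06e-05), and Klf10, a TGF-β-inducible repressor, fell by 1.99 at 2 h (SE 0.25, adjusted p = 2.62e-06).

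In the comparison of MPH with DMSO before LPS, 4 of the 48 pathway genes passed, 3 higher and 1 lower, beside 0.869% of all genes (means below are over all cultures, the test over M2 to M4 and D3 to D6). Zeb2 was at 8.77 ± 1.16 RPKM under MPH (SD, n = 3) and 17.6 ± 2.46 RPKM under DMSO (SD, n = 7), a difference of -0.95 (SE 0.16, limma adjusted p = 0.00440). Cdkn1a, the cell cycle inhibitor p21, was at 161 ± 16.6 RPKM under MPH and 74.0 ± 11.6 RPKM under DMSO, a difference of 0.98 (SE 0.17, adjusted p = 0.00728). Without M3 neither passed (adjusted p = 0.0690 and 0.0847, limma), and Cdkn1a did not pass without D5 (0.0509) or D6 (0.0522). With the culture as a block Zeb2 and Cdkn1a were the only pathway genes to pass (adjusted p = 0.0168 and 0.0498, limma), beside 0.244% of all genes. Runx3, a SMAD-binding factor, and Thbs1, thrombospondin 1, which can activate latent TGF-β, were higher by 2.17 (SE 0.49, adjusted p = 0.0435) and 5.69 (SE 1.14, adjusted p = 0.0199), and neither passed with the block (adjusted p = 0.0596 and 0.144). With any one of D4, D5, D6, M3 or M4 left out Runx3 did not pass (adjusted p of 0.0702 to 0.221), nor did Thbs1 with any one of D4, D5, D6, M2 or M3 left out (0.0763 to 0.104). At 1 h no pathway gene passed, and at 2 h 1 passed, Thbs1, which was higher by 5.16 (SE 1.14, adjusted p = 0.0365, 0.211 with the block, and 0.0672 to 0.176 with any one of D3 to D6, M2 or M3 left out). With the block 0 of the 48 passed at 2 h, beside 0.0195% of all genes (limma). At 1 h M4 held 4.24 RPKM of Thbs1, within the DMSO range of 0.656 to 25.5 RPKM. The same culture held 189 RPKM at 0 h and 167 RPKM at 2 h. Whether that 1 h library carried the MPH treatment was not tested, and the 1 h results under MPH include it.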

How the data were processed

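The authors deposited 1 table of RPKM values per RefSeq transcript (44401 transcripts, 24761 symbols). Per the submitters' processing notes, the tools were FastQC, cutadapt, HISAT2 and SAMtools and the genome build mm9 (no versions listed). How reads were counted, on which strand and with which annotation is not given in the sources used here. Each of the 30 value columns carried the name of 1 library. Of 24761 symbols, 8852 had several transcripts, and the transcript with the highest mean was kept. For Id1, Skil and Tgif1 the lowest transcript reached 81.4%, 97.6% and 82.0% of the chosen one. No value equalled 0, so low values are upper limits. Values were tested as log2(RPKM + 0.5) with limma-trend (limma 3.58.1, R 4.3.3) in genes that reached 1 RPKM in 3 or more libraries, with Benjamini-Hochberg adjustment over all genes of the fit (threshold 0.05). A fit of 21 libraries (M2 to M4, D3 to D6; 10239 genes) gave MPH against DMSO, LPS under MPH and their differences. LPS under DMSO came from a second fit, of all 21 DMSO libraries (10212 genes), in which cultures named D, r and UKD had terms of their own. The UKD and r cultures entered the comparison with MPH as an alternative only. A culture name marks the 3 times of a culture, and deviations from group means correlated between these libraries at 0.59 to 0.91 (fit with MPH) and 0.63 to 0.91 (DMSO fit), so the culture was also used as a block. Cultures D and M of the same number correlated at -0.64 to -0.36, so numbers do not pair treatments. The scripts were tested on simulated data. The pathway genes named are up to 4 per list and comparison with the smallest p past the threshold, and the genes most alike are the 3 with the highest r. Members, lists and alternatives were chosen with earlier results of these data known. The alternatives were other pseudocounts, filters and scalings, summed transcripts, robust variances, other sets of cultures, and leaving out libraries and cultures. A 6 h time was not analysed here, and some genes that the rules would name are not reported here.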

Additional observations from a re-analysis of the deposited data

Results flagged for a closer look

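The LPS response of Skil at 2 h differed between MPH and DMSO in the test of the difference itself once the culture was a block: -1.07 (log2, MPH minus DMSO, limma adjusted p = 0.0226), with the 3 MPH cultures below all 7 DMSO cultures. Without the block the same difference had an adjusted p of 1. Among the pathway genes, the 2 h response of Cdkn1a differed by -1.51 (adjusted p = 0.0216, and 1.93e-05 with the block, limma). Without the block the call ended when any of D4, D5, D6, M2, M3 or M4 was left out (adjusted p of 0.0860 to 0.221, limma). Cdkn1a was at 161 ± 16.6, 214 ± 22.7 and 171 ± 14.2 RPKM at 0, 1 and 2 h under MPH (SD, n = 3) and at 74.0 ± 11.6, 191 ± 22.2 and 284 ± 68.3 RPKM under DMSO (SD, n = 7). In the 24 groups of 4 or more libraries tested, no library of the 8 genes stood apart from its group.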

How the results depend on the processing

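Over 57 alternatives, none of the 569 recomputed values of called changes in the 8 genes reversed its direction, and 31 of them lost the call. Of the other values, 132 changed sign, 14 of them under alternatives other than leaving out a single library or culture. The number of the 8 genes that passed moved by over 1.5 times as follows, and the cause was not tested except where stated. With the culture as a replicate block, by limma's block or as a fixed term, 4 passed at 1 h under MPH in place of 0, 5 at 2 h under MPH in place of 1, and 6 between 1 and 2 h under DMSO in place of 3; with limma's block, 1 passed in the difference of responses at 2 h in place of 0. The replicate block added Id3 and Smad3 at 2 h under DMSO and ended no call of the 8 genes. A filter of 3 RPKM left 0 at 2 h under MPH, since Smad3 was then not tested. With D3 to D6 alone, fitted together with the MPH cultures, 2 passed at 1 h under DMSO and 1 between 1 and 2 h. Without the 3 shallow 1 h libraries 3 passed at 1 h under DMSO. Leaving out single libraries or cultures gave 3 to 6 at 1 h under DMSO (3 without r1 or without r2), 4 to 7 at 2 h (7 without D3), 3 to 4 between 1 and 2 h, and 0 to 3 at 2 h under MPH (3 without the 0 h library of M2, 0 without M3 or M4). In the other comparisons no leave-out gave a call. The share of all genes called was not computed for these smaller sets of libraries. Their counts therefore do not show whether calls were lost in these genes more than in others. Leaving out the 1 h library of M4, whose Thbs1 level lay within the DMSO range, changed no count of the 8 genes.

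Pathway gene counts moved more: with limma's block 12 in place of 4 passed at 1 h under MPH, 2 in place of 4 for MPH against DMSO before LPS, 0 in place of 1 at 2 h, 27 in place of 14 between 1 and 2 h under DMSO, and 4 in place of 1 in the difference of responses at 2 h. With D3 to D6 alone, fitted together with the MPH cultures, 5 in place of 16 passed at 1 h under DMSO, 17 in place of 27 at 2 h, and 3 in place of 14 between 1 and 2 h. The share of all genes called with D3 to D6 alone was not computed. Depth limits Smad7 and Smad3 most, at about 1 RPKM. With 3 MPH cultures, differences in Id1, Id3 and Smad6 between treatments were measured with SE of 0.56 to 0.92 (log2).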

Other observations

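M2, M3 and M4 resembled D3, D4 and D5 over all genes, which the labels do not state as a pairing, so the values of the 8 genes in these cultures are given side by side with no test. At 0 h Skil was higher in the MPH culture in 3 of 3 such sets, by 0.27 to 0.58 (log2). Tgif1 was higher in 3 of 3, by 0.44 to 0.69, and Smad3 in 3 of 3, by 0.40 to 0.69. Id2 was lower in 3 of 3 at 0 h, with differences of -0.52 to -0.38, at 1 h, with -0.37 to -0.15, and at 2 h, with -0.37 to -0.30. Id3 was higher in 3 of 3 at 0 h, by 0.08 to 0.38, and at 1 h, by 0.10 to 0.59. Smad6 was higher in 3 of 3 at 0 h, by 0.25 to 0.54, and at 1 h, by 0.09 to 0.28, and Smad7 at 1 h, by 0.36 to 0.73. At 2 h Skil was lower in 3 of 3, with -0.64 to -0.39, and Id3 in 3 of 3, with -0.52 to -0.23. In the other combinations of gene and time the sets went both ways, Id1 at all times among them. The sets were chosen from these data, and the share of all genes with the same direction in 3 of 3 was not computed.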
